A study of Mus musculus with 2 samples.

Results

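The retinoid binding and metabolism genes described here were Crabp1, Rbp4, Aldh1a1, Aldh1a2, Aldh1a3, Dhrs3, Cyp26b1, Rarb and Rarg. They were taken by gene symbol, each symbol matched 1 gene, and these 9 genes were all found among the 33904 genes counted in both libraries. The libraries were single-cell RNA-seq of mouse dorsal skin made with 10x Genomics 3′ v3.1 chemistry, with 1 library per group. The Ctrl library came from female C57BL/6J mice, 7 weeks old, whose depilated back skin received 100% ethanol every day. The AD library came from mice of the same strain, sex and age that received MC903 (calcipotriol, a vitamin D analogue that induces atopic dermatitis-like inflammation) in ethanol, at 4.5 nmol per application. Skin of both groups was taken on day 10. The number of mice behind a library was not given in the sources used here. With 1 library per group no test between the groups was possible and no p-value is given. Every interval below is an exact 95% interval for counting error alone and says nothing of the spread between mice.

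Retinol reaches tissues bound to the carrier RBP4. Inside cells it is oxidised to retinal, a step that the reductase DHRS3 runs in reverse, and the ALDH1A enzymes then oxidise retinal irreversibly to retinoic acid. CRABP1 binds retinoic acid in the cytoplasm, CYP26B1 oxidises it to inactive products, and the receptors RARβ and RARγ bind DNA together with an RXR partner to switch on target genes. RXR is also the partner of the vitamin D receptor, through which MC903 acts. In skin, retinoic acid is known for its control of epidermal differentiation and of the hair follicle, and Rarb, Cyp26b1 and Dhrs3 are among the genes it is known to induce.

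In the GENCODE M21 annotation of GRCm38, the binding protein genes lay on chromosome 9 (Crabp1, plus strand, 54764748 to 54773110) and chromosome 19 (Rbp4, minus strand, 38116629 to 38125281). Among the synthesis genes, Aldh1a1 lay on chromosome 19 (plus strand, 20492715 to 20643465), Aldh1a2 on chromosome 9 (plus strand, 71215789 to 71296243) and Aldh1a3 on chromosome 7 (minus strand, 66390890 to 66427517). Dhrs3 lay on chromosome 4 (plus strand, 144892827 to 144928209) and Cyp26b1 on chromosome 6 (minus strand, 84571414 to 84593908). The receptor genes were Rarb on chromosome 14 (minus strand, 16430839 to 16819156) and Rarg on chromosome 15 (minus strand, 102234938 to 102257517).

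A retinoic acid response element is a repeat of short half-sites that RAR and RXR occupy together. The promoter windows of RefSeq (GRCm38.p6, from 250 bases before to 50 bases after a start) were searched on both strands for a half-site (AGGTCA or AGTTCA or GGGTCA or GGTTCA) and for pairs of them in the same direction with a gap of 5, 2 or 1 bases. Of the 9 genes, 8 had a window. A pair with a gap of 5 bases was found in 1 of them, the Rarb window at chr14:16575427-16575726 on the minus strand, and in 32 of all 32851 windows (0.0974%). The pair spans bases 53 to 37 before the start. It is printed because Rarb, low in fibroblasts and highest in melanocytes here, was the gene of the 9 whose window held such a pair, and the capitals mark the pair:

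Rarb promoter, chr14:16575493-16575549, minus strand: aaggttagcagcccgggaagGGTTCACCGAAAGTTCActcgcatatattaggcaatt

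No pair with a gap of 2 or 1 bases was found in any of the 8 genes' windows, against 0.268% and 0.222% of all windows. A lone half-site, found in 43.7% of all windows, was also present in windows of Rbp4, Aldh1a1 and Rarg. The Rarb window lies inside the annotated gene, downstream of its outermost start. Counts from the 3′ end of transcripts cannot tell which start was used, so the motif is given as a description of the sequence.

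The Ctrl library held 12598 barcodes and the AD library 8778, of which 11399 and 8179 passed the study's filter on genes and mitochondrial UMIs, with medians of 7813 and 6330 UMIs per cell. Between the libraries, 35 barcodes were shared. Cells were placed in types by a gate on marker genes, which left 5.81% of Ctrl cells and 8.45% of AD cells ungated. Fibroblasts were the largest type with 6138 and 5190 cells, and their defining markers were present in both libraries (Pdgfra in 89.0% and 91.1% of cells, Dcn in 94.4% and 97.7%). The collagen genes Col1a1 and Col3a1 were themselves lower in AD fibroblasts, at 779 against 11622 CPM and at 568 against 8781 CPM. CPM here is a gene's share of all UMIs summed over the cells of a class, so that 10000 CPM equals 1% of the UMIs. Suprabasal keratinocytes (432 and 7 cells), Langerhans cells (107 and 29), basophils (13 and 59), neutrophils (5 and 51) and adipocytes (3 and 126) were too few in 1 library to be compared. AD cells in the hair follicle keratinocyte gate had a median of 814 UMIs and no UMI of the follicle keratins Krt25, Krt27, Krt71 and Krt35. Other markers of the gate were seen in more of them than in Ctrl: Krt17 (100% against 66.2%), Krt79 (94.1% against 39.3%), Cst6 (94.1% against 43.4%) and Defb6 (91.2% against 31.5%). The gate thus held unlike cells in the libraries, and these were not compared either.

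In fibroblasts the retinoic acid-binding gene Crabp1, the retinol carrier gene Rbp4 and the synthesis gene Aldh1a3 were each at least 2-fold lower in AD than in Ctrl, while Aldh1a1 and the catabolic gene Cyp26b1 were higher by less than 2-fold. Of the 9 genes, 7 reached 10 CPM in fibroblasts of either library. With 1 CPM added to each value, 3 of these 7 were lower past a fold of 2 and 0 were higher, beside 13.3% lower and 6.82% higher among all 9214 genes at that level. The median log2 fold was -0.83 over the 7 genes and -0.09 over all genes tested. The 9 genes were chosen with earlier results of these data known. These counts and medians, and the like counts below, therefore only describe the list.

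**Figure D1:**
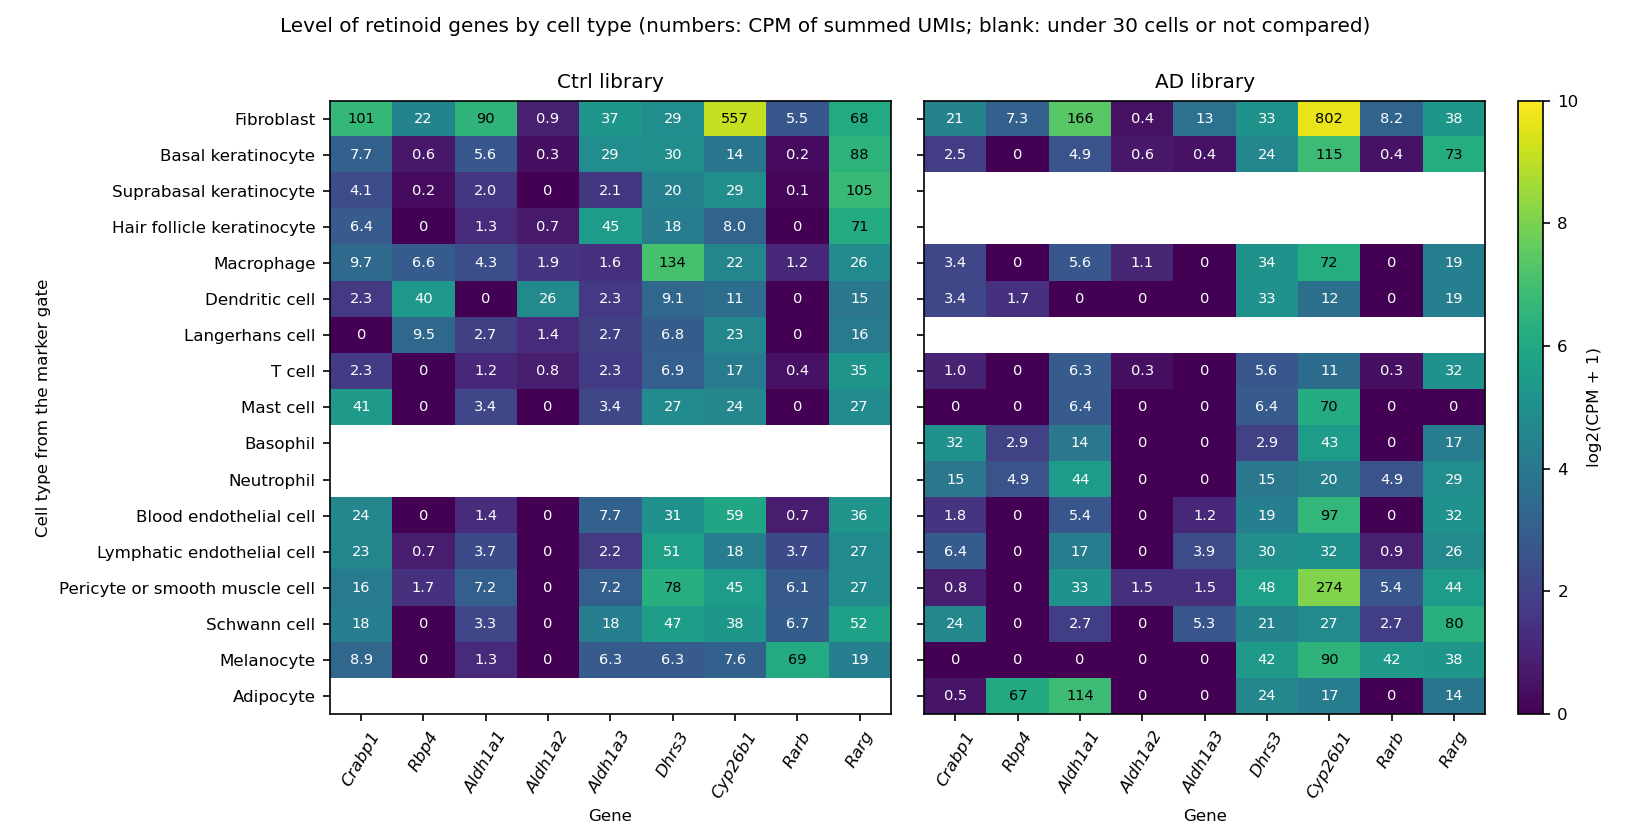
Level of the 9 genes (columns) in each cell type (rows) of the Ctrl library (left) and the AD library (right). Numbers are CPM of summed UMIs and colours are log2(CPM + 1). Blank rows are types with under 30 cells, and AD hair follicle keratinocytes, whose markers were unlike those in Ctrl. The fibroblast row holds the highest Cyp26b1 values, 557 CPM in Ctrl and 802 CPM in AD.

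Crabp1, whose product binds retinoic acid in the cytoplasm, had 5810 UMIs in Ctrl fibroblasts (101 CPM, 98.5 to 104) and 823 in AD fibroblasts (21.1 CPM, 19.6 to 22.5). The log2 fold (AD relative to Ctrl) was -2.26 (-2.37 to -2.16). A UMI of Crabp1 was seen in 923 of the 6138 Ctrl and 242 of the 5190 AD fibroblasts (4.66% in AD), and in 0.537% and 0.644% of T cells, which serve here as a reference for stray UMIs. Fibroblasts had more UMIs than T cells (medians of 8598 and 6746 against 3052 and 5436). With every cell thinned to 1000 UMIs, the fibroblast shares were 6.70% and 1.38%. The gene was therefore concentrated in a minority of fibroblasts in both libraries. The 61 Ctrl fibroblasts with most Crabp1, 1% of them, held 31.9% of its UMIs there, and the corresponding 51 AD fibroblasts held 64.5%.

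Most fibroblast Crabp1 of the Ctrl library came from a single cluster of cells. Cells were clustered over both libraries with the 9 genes left out. Cluster 11, led by Vcan, Wif1, Hhip and Rspo3, genes of the follicle mesenchyme, held 10.3% of Ctrl fibroblasts and 70.7% of their Crabp1 UMIs, at 832 CPM. In AD only 1 cell fell in this cluster. Without cluster 11 the log2 fold of Crabp1 in fibroblasts was -0.62, so the size of the difference rested on these cells. Crabp1 was among the leading genes of this cluster and nearly only Ctrl cells were left out, so a smaller fold was bound to follow. Whether AD skin had fewer such cells, or the cells had less of these transcripts, cannot be told apart.

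Only 1 cluster, number 28, held at least 20 gated fibroblasts of each library. It was led by Coch, Fmod, Aspn and Enpp2, with Crabp1 itself among its leading genes although it had no part in the clustering. It made up 1.27% of Ctrl and 1.72% of AD fibroblasts. Over the 78 Ctrl and 90 AD cells of this cluster Crabp1 stood at 1844 and 524 CPM, with a log2 fold of -1.81 (-1.99 to -1.65). The lower AD level was thus also present among the cells of this cluster. Cluster 9 held 26 Ctrl and 710 AD cells, and there Crabp1 had 7 and 336 UMIs (105 and 115 CPM), with a log2 fold of 0.13 (-0.93 to 1.46). Of the Crabp1 UMIs of gated AD fibroblasts, cluster 28 held 51.3% and cluster 9 held 24.8%.

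Rbp4, the gene of the retinol carrier, had 1237 UMIs in Ctrl fibroblasts (21.5 CPM, 20.3 to 22.8) and 286 in AD fibroblasts (7.32 CPM, 6.49 to 8.22). The log2 fold was -1.56 (-1.75 to -1.37). Clusters 4 (led by Postn and Col3a1) and 0 (led by Col1a1 and Lum) held 48.2% and 38.0% of the Ctrl UMIs, so most Rbp4 lay in clusters led by collagen and matrix genes. In Ctrl dendritic cells Rbp4 stood at 39.7 CPM (27.6 to 55.2), from 35 UMIs in 9 of 114 cells. In 39 AD dendritic cells it had 1 UMI, and the log2 fold was -4.53 with an interval of -9.88 to -1.96. The dendritic cell gate held unlike cells in the libraries: Ccr7, a gene of mature dendritic cells, was seen in 30.7% of Ctrl and 89.7% of AD cells, and Cd209a, Xcr1 and Clec9a, genes of other dendritic cells, in 28.9% to 47.4% and in 2.56% to 10.3%. In cluster 34, led by Ccr7, Rbp4 had 1 UMI in 31 Ctrl cells and 0 in 30 AD cells, so no difference between like dendritic cells can be read from these values. The 126 AD adipocytes, a cell type known to secrete RBP4, had 66.9 CPM (56.4 to 78.9) and held 32.8% of all Rbp4 UMIs in kept AD cells. T cells had no UMI of Rbp4 in either library, which allows up to 1.15 CPM in Ctrl and 0.996 CPM in AD.

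The synthesis genes did not share a direction. Aldh1a1, which encodes a retinal dehydrogenase, stood at 90.2 CPM (87.8 to 92.7) in Ctrl and was higher in AD fibroblasts at 166 CPM (162 to 170), a log2 fold of 0.88 (0.83 to 0.93). A UMI was seen in 40.1% of Ctrl and 54.3% of AD fibroblasts, although AD fibroblasts were shallower, and the shares after thinning were 7.86% and 15.7%. In T cells the shares were 0.403% and 2.15%. Aldh1a1 was therefore the member of the ALDH1A family with a higher level and a wider spread over fibroblasts in AD. AD adipocytes had 114 CPM (100.1 to 129). Pericytes and smooth muscle cells had 7.20 and 33.1 CPM in the libraries, with a log2 fold of 2.20 (1.28 to 3.22), beside fibroblast markers that stood there at 1.56% to 276% of their fibroblast level in AD. The part of these markers' cells in that value was not tested.

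Aldh1a3, a second retinal dehydrogenase gene, ran the other way. It had 2115 UMIs in Ctrl fibroblasts (36.8 CPM, 35.2 to 38.4) and 490 in AD fibroblasts (12.5 CPM, 11.4 to 13.7), a log2 fold of -1.55 (-1.70 to -1.41). In Ctrl it lay in clusters 2 and 11, at 99.7 and 112 CPM of their fibroblasts, where 64.9% and 26.2% of its UMIs lay. In AD clusters 5 and 3 held 45.1% and 43.3% of its UMIs, at 28.6 and 36.4 CPM. Without cluster 11 the log2 fold was -1.26.

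Basal keratinocytes showed the widest gap for Aldh1a3. The 1283 Ctrl cells had 514 UMIs (28.9 CPM, 26.5 to 31.5), spread over 121 cells, and the 356 AD cells had 2 UMIs. The log2 fold was -6.20 with an interval of -9.25 to -4.34. The keratinocyte clusters with most Ctrl Aldh1a3 held hardly any AD cells. Cluster 8, led by Krt17, Krt5 and Krt15, had 482 UMIs (51.3 CPM) over 792 Ctrl cells, against 8 AD cells in it. Cluster 18, led by the cycling genes Mki67 and Top2a, had 304 UMIs (38.7 CPM) over 464 Ctrl cells, with 0 AD cells in it. These counts cover all kept cells of a cluster, also those outside the basal keratinocyte gate, and are not parts of the 514 UMIs. Cluster 8, for example, held 59 gated Ctrl fibroblasts with 31 UMIs of Aldh1a3. In keratinocyte cluster 15, with 383 Ctrl and 146 AD cells, Aldh1a3 had 23 and 1 UMIs, with a log2 fold of -3.76 and an interval of -9.12 to -1.13. The 219 Ctrl hair follicle keratinocytes had 45.2 CPM (37.9 to 53.6), and the interval did not overlap that of basal keratinocytes.

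Aldh1a2, the other gene of the family, was rare, with 49 UMIs in Ctrl and 15 in AD fibroblasts and a log2 fold of -1.15 (-2.09 to -0.29). Of the 49 Ctrl UMIs, 38 were in fibroblasts of the dermal sheath gate, at 4.68 CPM. Its highest level was in Ctrl dendritic cells, at 26.1 CPM (16.5 to 39.1), but the 23 UMIs came from 4 cells and as many as 9 from a single cell. The 39 AD dendritic cells, unlike the Ctrl ones in their markers as described above, had 0 UMIs, which allows up to 5.15 CPM by the limit of 3 counts. Cluster 34, led by Ccr7, Ccl22 and Fscn1, genes of mature dendritic cells, had 24 UMIs of Aldh1a2 in 31 Ctrl cells (97.4 CPM) and 0 in 30 AD cells, which allows up to 6.2 CPM by the same limit.

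**Figure D2:**
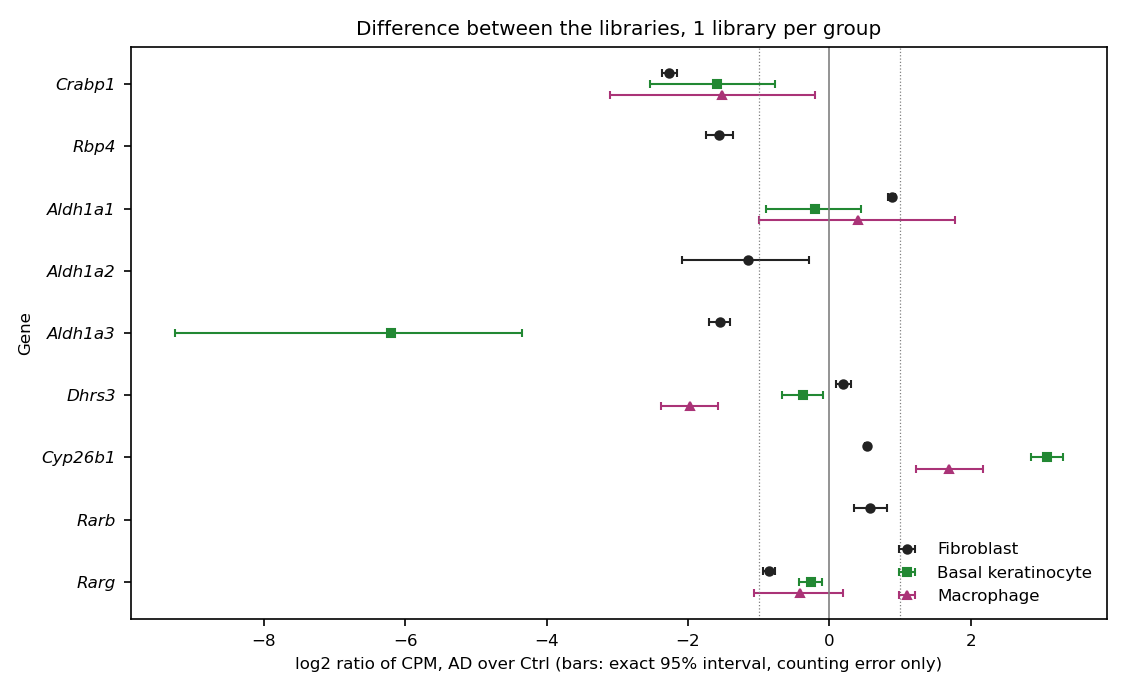
Log2 fold in CPM (AD relative to Ctrl) for each gene in fibroblasts (circles), basal keratinocytes (squares) and macrophages (triangles), with bars for the exact 95% interval of counting error and dotted lines at 2-fold; pairs with 0 UMIs in a library or under 10 in all are left out. Crabp1 stood at -2.26 in fibroblasts, Aldh1a3 at -6.20 in basal keratinocytes, Dhrs3 at -1.97 in macrophages and Cyp26b1 at 3.07 in basal keratinocytes.

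Dhrs3, whose product turns retinal back to retinol, had like levels in the largest fibroblast clusters (25.4 to 40.5 CPM in Ctrl clusters 0, 2, 4, 7 and 11). Summed over all fibroblasts it differed little between the libraries, at 29.1 CPM (27.7 to 30.5) in Ctrl against 33.3 CPM (31.5 to 35.2) in AD. The log2 fold was 0.20 (0.09 to 0.30). In cluster 28 Dhrs3 was lower in AD, on 11 Ctrl and 1 AD UMIs (log2 fold -4.24, -9.67 to -1.46). Directions also differed between fibroblast subsets, as given below. The type with most Dhrs3 in Ctrl was the macrophage, at 134 CPM (121 to 149) in 544 cells. In 228 AD macrophages it was 34.4 CPM (26.3 to 44.1). The log2 fold was -1.97 (-2.39 to -1.57). A UMI was seen in 34.0% of Ctrl and 21.5% of AD macrophages, although AD macrophages were deeper (medians of 6218 against 4405 UMIs), and in 1.88% and 3.00% of T cells. The macrophage shares after thinning were 12.4% and 4.76%. In macrophage cluster 16, with 409 Ctrl and 106 AD cells led by Lyz2, Retnla, C1qa and Mrc1, Dhrs3 was 193 CPM against 60.3 CPM, a log2 fold of -1.68 (-2.22 to -1.17). The lower AD level was thus also seen in macrophages that clustered together.

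Dhrs3 was also 77.6 CPM in Ctrl and 48.5 CPM in AD pericytes and smooth muscle cells (log2 fold -0.68, -1.13 to -0.24). In lymphatic endothelial cells, where each library had 69 UMIs, the log2 fold was -0.78 (-1.29 to -0.28). Basal keratinocytes had 30.5 and 23.5 CPM, with a log2 fold of -0.37 (-0.67 to -0.09). A cluster of 95 Ctrl and 3 AD cells led by the lipid synthesis genes Elovl6, Scd1 and Fa2h had 109 CPM (94.5 to 125) in Ctrl. In dendritic cells and melanocytes the ratio went the other way, at 1.85 (0.59 to 3.25) and 2.72 (1.11 to 4.57), but on 8 against 19 and 5 against 12 UMIs. In dendritic cell cluster 34 the log2 fold of Dhrs3 was 0.61 with an interval of -0.78 to 2.23, which includes 0.

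Cyp26b1, which removes retinoic acid, had 32018 UMIs in Ctrl fibroblasts (557 CPM, 551 to 563) and 31328 in AD fibroblasts (802 CPM, 793 to 810). The log2 fold was 0.53 (0.50 to 0.55). Yet fewer AD fibroblasts had a UMI, 44.8% against 57.7%, and the thinned shares were 27.3% and 29.9%. The mean of each cell's own CPM gave a log2 fold of -0.073, so the direction depended on whether UMIs were summed or cells averaged. The libraries differed in the distribution over cells. At least 20 UMIs were seen in 7.84% of Ctrl and 10.7% of AD fibroblasts, and the highest cell had 96 and 177 UMIs.

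**Figure D3:**
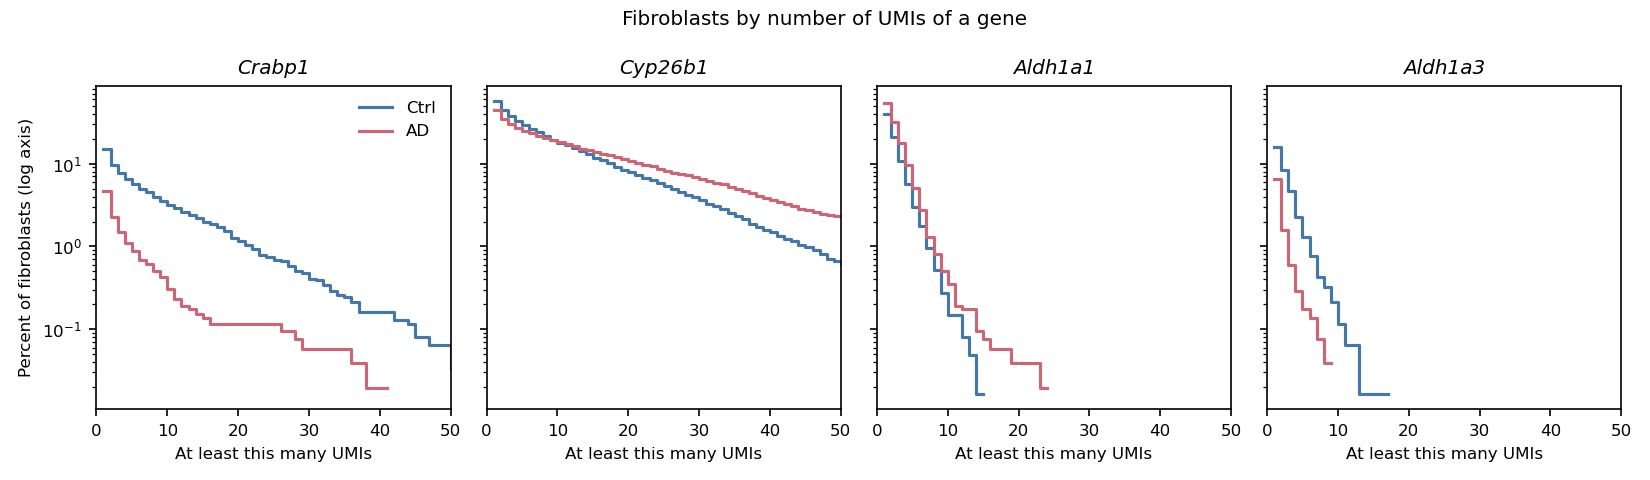
Percent of fibroblasts (log axis) with at least a given number of UMIs of Crabp1, Cyp26b1, Aldh1a1 and Aldh1a3 (horizontal axis), for Ctrl (blue) and AD (red). The Cyp26b1 lines cross: the AD library had a smaller share of cells with any UMI (44.8% against 57.7%) and a larger share with at least 20 (10.7% against 7.84%).

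The fibroblasts with much Cyp26b1 belonged to different clusters in the libraries. In Ctrl, cluster 0 (Col1a1, Lum, Mfap4, Ccl19) held 28.0% of gated fibroblasts and 72.1% of their Cyp26b1 UMIs, at 1661 CPM. In AD, cluster 6 (Cpxm1, Saa3, Coch, Tnc, Mmp3) held 18.2% of fibroblasts and 65.3% of the UMIs, at 1961 CPM, and cluster 9 (Dkk2, Prlr, Spp1, Lamc3) stood at 1654 CPM. In the shared cluster 28, Cyp26b1 stood at 1157 CPM in the Ctrl cells and 2472 CPM in the AD cells, a log2 fold of 1.10 (0.96 to 1.24). In those cells Cyp26b1 was higher while Crabp1 was lower in AD.

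**Figure D4:**
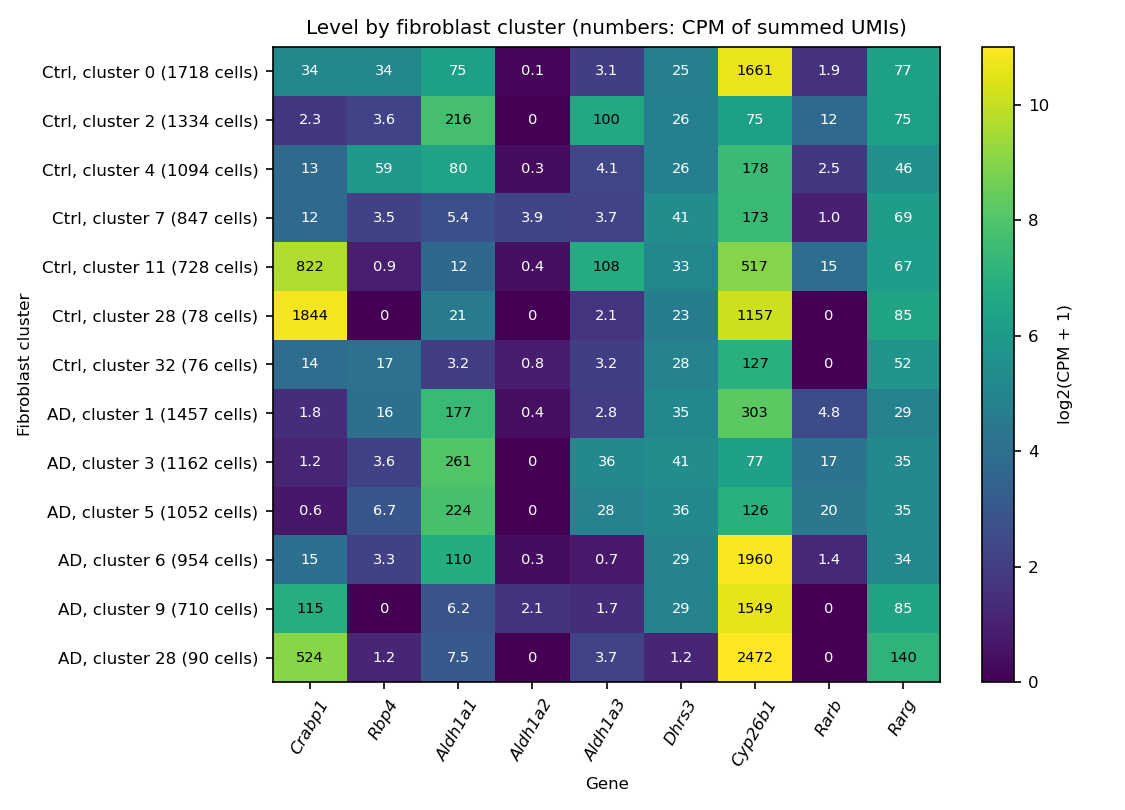
Level of the 9 genes (columns) in each fibroblast cluster with at least 60 cells of a library (rows); numbers are CPM over all kept cells of the cluster and colours are log2(CPM + 1). Clusters 0, 6, 9 and 28 were high in Cyp26b1 (1157 to 2472 CPM) and low in Aldh1a3 and Rarb, while cluster 2 of Ctrl and clusters 3 and 5 of AD were low in Cyp26b1 and held more Aldh1a1, Aldh1a3 and Rarb. Clusters 4 and 7 of Ctrl and cluster 1 of AD had less Cyp26b1 and also little Aldh1a3 and Rarb.

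The clusters with most Cyp26b1 had little Aldh1a3 and Rarb in each library. Ctrl cluster 2 (Smpd3, Ogn, Ptx3, Col14a1) had 216 CPM of Aldh1a1, 99.7 CPM of Aldh1a3 and 12.4 CPM of Rarb, and Ctrl cluster 0 had 74.8, 3.1 and 1.94 CPM. AD cluster 5 (Cxcl13, Ptx3, Ccl2, Il6) had 224 CPM of Aldh1a1, 28.6 CPM of Aldh1a3 and 19.8 CPM of Rarb, and AD cluster 6 had 110, 0.67 and 1.44 CPM. Cluster 11 of Ctrl held all of them, with 523 CPM of Cyp26b1 beside 112 CPM of Aldh1a3 and 14.98 CPM of Rarb. Ctrl clusters 4 and 7 and AD cluster 1 had less Cyp26b1, at 178, 176 and 303 CPM. They too had little Aldh1a3 (4.12, 3.57 and 2.77 CPM) and Rarb (2.5, 0.97 and 4.8 CPM). Low Aldh1a3 and Rarb were thus not particular to the clusters with most Cyp26b1. Cells with UMIs of both Cyp26b1 and Aldh1a3 numbered 387 in Ctrl, 0.688 times the 562 given by the product of both shares, and 82 in AD, 0.543 times the product. After thinning the values were 0.408 and 0.296 times, the latter from 5 cells. Cells with both Crabp1 and Cyp26b1 numbered 690 in Ctrl and 205 in AD, 1.30 and 1.89 times the product, and 1.25 and 2.34 times after thinning. Deeper cells raise the joint detection of any pair of genes, which acts against the values below 1.

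Fibroblasts were also gated into subsets, each on its own markers and none of them on any of the 9 genes. The HI-AP, Areg, peri-follicular and RET/pAd subsets carry names from the study, and the dermal sheath and follicle mesenchyme gates were added here. In the Interstitial (HI-AP) subset, 3624 Ctrl and 1494 AD cells, Cyp26b1 was 480 CPM in Ctrl (473 to 487) against 115 CPM in AD (108 to 121), a log2 fold of -2.07 (-2.15 to -1.99). In the Peri-follicular or papillary subset, 691 and 644 cells, it stood at 1101 CPM in Ctrl cells against 2145 CPM in AD cells, a log2 fold of 0.96 (0.92 to 1.01). Directions were therefore opposite in HI-AP and peri-follicular cells, a difference that 1 library per group cannot test. The HI-AP difference rested on cluster 0, which held 32.2% of Ctrl HI-AP cells and had 1390 CPM of Cyp26b1 in them. Outside that cluster the levels were 129 CPM in 2456 Ctrl cells and 115 CPM in 1494 AD cells, a log2 fold of -0.17 (-0.27 to -0.08). The main HI-AP clusters were 2, 0 and 4 in Ctrl and 3, 5 and 1 in AD, with none in common. Nor did the main peri-follicular clusters overlap. They were 11, 0 and 7 in Ctrl, whose fibroblasts had 523, 1661 and 176 CPM of Cyp26b1. In AD they were 9, 6 and 28, with 1654, 1961 and 2469 CPM. Both folds thus largely compare cells of different clusters.

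In the HI-AP subset 8 of the 9 genes reached 10 CPM. Of these, 3 were lower in AD past 2-fold (Crabp1, Cyp26b1 and Rbp4) and 1 was higher (Rarb), beside 12.1% lower and 8.36% higher among all genes there. Cluster 0, with 0 AD cells, held 199 of the 366 Ctrl Crabp1 UMIs of this subset, at 20.4 CPM. Clusters 2 and 4 had 2.34 and 6.91 CPM of Crabp1, so its count among the lower genes depends on cluster 0, as for Cyp26b1. Aldh1a1 was 133 CPM in Ctrl and 243 CPM in AD HI-AP cells (log2 fold 0.87, 0.80 to 0.94), and Aldh1a3 differed less than over all fibroblasts, at 42.7 and 32.7 CPM (log2 fold -0.38, -0.55 to -0.22). Dhrs3 was higher in the AD cells of this subset (log2 fold 0.62, 0.45 to 0.80). Rarb reached 6.16 CPM (5.36 to 7.04) in Ctrl against 14.2 CPM (12.0 to 16.6) in AD, a log2 fold of 1.20 (0.90 to 1.51). Rarg was 68.2 and 36.3 CPM (log2 fold -0.91, -1.06 to -0.76). The receptor genes of the HI-AP cells thus ran in opposite directions. Levels varied over the clusters of this subset. Ctrl clusters 0, 2 and 4 had 1.54, 12.4 and 2.19 CPM of Rarb and 76.4, 217 and 82.6 CPM of Aldh1a1. AD clusters 1, 3 and 5 had 6.12, 16.6 and 17.8 CPM of Rarb and 219, 273 and 240 CPM of Aldh1a1. The part of the mix of clusters in these folds was not tested.

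In the peri-follicular subset 6 genes reached 10 CPM. Crabp1 and Aldh1a3 were lower in AD past 2-fold and 0 were higher, beside 14.2% lower and 5.68% higher among all genes there. Crabp1 was 347 CPM in Ctrl and 105 CPM in AD (log2 fold -1.73, -1.87 to -1.59). Aldh1a3 had 136 UMIs in Ctrl and 5 in AD, a log2 fold of -4.85 (-6.50 to -3.59). Dhrs3 had 186 and 128 UMIs and a log2 fold of -0.62 (-0.96 to -0.29), opposite in direction to the HI-AP subset. The largest shares of peri-follicular cells lay in clusters 11, 0 and 7 in Ctrl and in clusters 9, 6 and 28 in AD. Rarg was 77.7 and 69.0 CPM, and the interval of its log2 fold, -0.38 to 0.04, included 0.

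**Figure D5:**
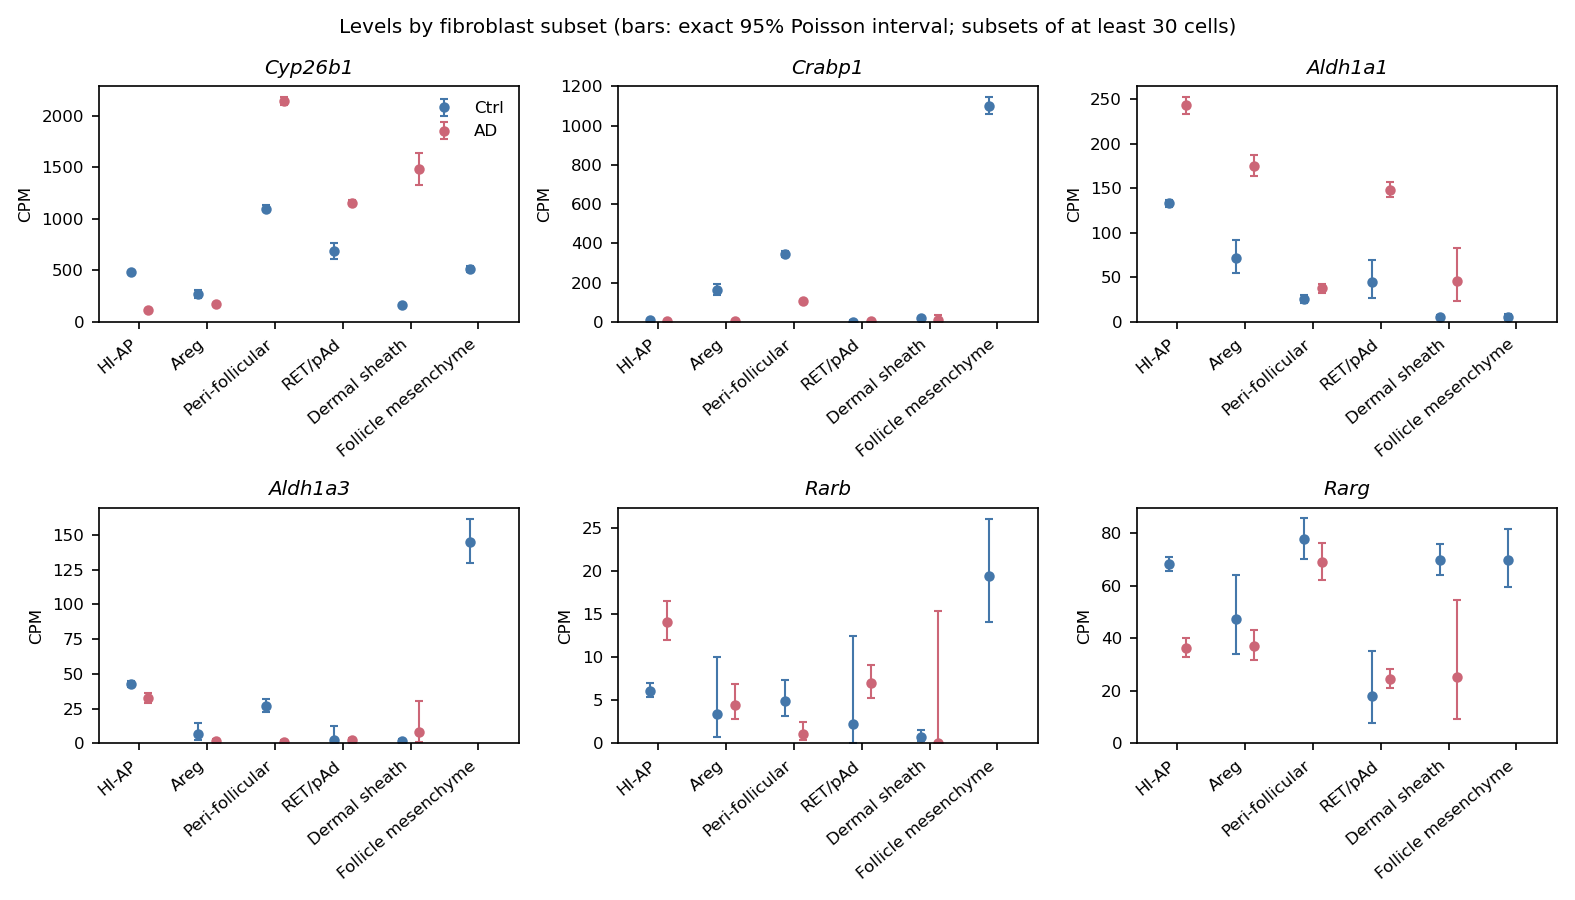
CPM of 6 genes (panels, vertical axes from 0) by fibroblast subset in Ctrl (blue) and AD (red), with bars for the exact 95% Poisson interval; subsets with under 30 cells in a library have no point. Cyp26b1 was lower in AD in the HI-AP subset (115 against 480 CPM) and higher in the peri-follicular subset (2145 against 1101 CPM), and Crabp1 was highest in Ctrl follicle mesenchyme (1101 CPM). The main clusters of the HI-AP and peri-follicular cells differed between the libraries.

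The other subsets were small in 1 library, and their cells lay mostly in different clusters: RET/pAd cells in clusters 0 and 4 in Ctrl and 6, 1 and 5 in AD, and Areg cells in cluster 4 in Ctrl (54.6%) and cluster 1 in AD (73.2%). Their folds therefore compare cells of different clusters. The reticular or pre-adipocyte subset (RET/pAd, 49 Ctrl and 856 AD cells) had 686 and 1156 CPM of Cyp26b1 (log2 fold 0.75, 0.59 to 0.92), 44.7 and 149 CPM of Aldh1a1 (1.73, 1.10 to 2.45), and 118 and 6.76 CPM of Rbp4 (-4.13, -4.71 to -3.55). The Areg subset (141 and 753 cells) had 270 and 170 CPM of Cyp26b1 and 71.5 and 175 CPM of Aldh1a1, with 142 and 25 UMIs of Crabp1. Aldh1a1 was thus higher in AD in the HI-AP, Areg, peri-follicular and RET/pAd subsets. The dermal sheath gate held 640 Ctrl but 38 AD cells, and 47.4% of the latter lay in cluster 9 where 83.0% of the former lay in cluster 7. There Cyp26b1 was 169 and 1480 CPM. Follicle mesenchyme, with 280 Ctrl and 10 AD cells, was not compared, and its Ctrl cells had 1101 CPM of Crabp1, 145 CPM of Aldh1a3 and 19.5 CPM of Rarb.

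Outside fibroblasts Cyp26b1 was higher in AD basal keratinocytes, at 115 CPM (106 to 125) against 13.7 CPM (12.0 to 15.5), a log2 fold of 3.07 (2.86 to 3.30). A UMI was seen in 36.8% of AD and 11.4% of Ctrl cells, with medians of 11099 and 13342 UMIs, and in 5.79% and 5.10% of T cells. T cells had 10.6 CPM in AD and 16.9 CPM in Ctrl, so the Ctrl basal keratinocyte level was no higher than that of Ctrl T cells. Of the 9 genes, 4 reached 10 CPM in basal keratinocytes, with 1 higher (Cyp26b1) and 1 lower (Aldh1a3) past 2-fold, beside 5.33% higher and 11% lower among all genes. In cluster 15, which held both libraries, Cyp26b1 stood at 33.1 CPM over the Ctrl and 158 CPM over the AD cells, a log2 fold of 2.25 (2.00 to 2.51).

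RNA freed from fibroblasts can enter other droplets, and the level of 10 fibroblast markers gives a rough measure of it. In AD basal keratinocytes these markers stood at a median of 1.65% of their fibroblast level (0.898% to 3.97%). For Cyp26b1 this would give 13.2 CPM at the median marker and 31.8 CPM at the highest, beside 115 CPM measured. AD macrophages measured 71.5 CPM, beside 22.3 CPM carried at the median marker and 30.5 CPM at the highest. These values take the level over all AD fibroblasts (802 CPM) as the source. Peri-follicular AD cells had 2145 CPM, so the values are not upper limits, and the part of carried RNA was not tested. In AD pericytes and smooth muscle cells the measured value was 274 CPM, but the markers ranged from 1.56% to 276%, so their part in it was not tested. Melanocytes had 90.4 CPM in AD from 26 UMIs, of which 24 were in 1 cell.

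Rarg, the receptor gene known for its high level in epidermis, was present in every keratinocyte type. Ctrl suprabasal keratinocytes had 105 CPM (98.6 to 112), Ctrl basal keratinocytes 87.5 CPM (83.2 to 91.97), and hair follicle keratinocytes 71.0 CPM (61.8 to 81.3), and these intervals did not overlap. Fibroblasts had 68.0 CPM (65.9 to 70.2), which overlapped with follicle keratinocytes. In AD the fibroblast level was 37.7 CPM (35.8 to 39.7), a log2 fold of -0.85 (-0.94 to -0.77), whereas basal keratinocytes had 72.7 CPM (65.5 to 80.5), a log2 fold of -0.27 (-0.43 to -0.10). T cells had 35.4 CPM (28.5 to 43.4) in Ctrl against 31.9 CPM (25.8 to 38.9) in AD. The intervals of AD fibroblasts and AD T cells overlapped. Fibroblast RNA carried at the median marker would give 0.44 CPM of Rarg in AD T cells. T cells are thus not read as a reference for stray UMIs of this gene. In cluster 28 Rarg was higher in AD, at 140 against 85.4 CPM (log2 fold 0.72, 0.19 to 1.28). The direction in that cluster was thus opposite to that over all fibroblasts. In cluster 9 the log2 fold of Rarg was 0.49 on 4 and 247 UMIs, with an interval of -0.88 to 2.38.

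Rarb, the receptor gene with the paired half-sites shown above, was low in fibroblasts, at 5.51 CPM (4.92 to 6.15) in Ctrl against 8.24 CPM (7.36 to 9.19) in AD, a log2 fold of 0.58 (0.35 to 0.81). Beside the higher level in HI-AP cells, the peri-follicular subset went the other way, with 25 Ctrl and 6 AD UMIs and a log2 fold of -2.14 (-3.72 to -0.82). No fibroblast had more than 5 UMIs. Ctrl clusters 2 and 11 held 53.9% and 23.3% of the UMIs, and AD clusters 5 and 3 held 47.5% and 31.4%. These are the clusters with most Aldh1a3. Melanocytes had the highest Rarb level, at 68.6 CPM (51.5 to 89.5) in 75 Ctrl cells and 41.7 CPM (21.6 to 72.9) in 87 AD cells, from 54 and 12 UMIs. The log2 fold there, -0.72, had an interval of -1.76 to 0.20.

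Other genes of retinoid handling were read from a list of 62 genes. Of these, 34 reached 10 CPM in fibroblasts, with 2 higher and 4 lower past 2-fold, and their median log2 fold was 0.03 against -0.09 over all genes. Past the same fold were 6.82% of all genes on the higher and 13.3% on the lower side, so the list's counts were close to that background. Both higher genes were lipases listed under release of retinyl esters: Pnpla2, the adipose triglyceride lipase, at 21.4 and 108 CPM (log2 fold 2.33, 2.24 to 2.42), and Lpl, lipoprotein lipase and a RET/pAd marker, at 496 and 1029 CPM (1.05, 1.03 to 1.08). The AD library also held 126 adipocytes against 3, and their part in these values was not tested. Among the lower genes were the fatty acid and retinoic acid-binding gene Fabp5, at 109 and 29.2 CPM (-1.89, -1.99 to -1.80), and the retinol dehydrogenase gene Adh7, at 105 and 31.6 CPM (-1.73, -1.82 to -1.64). Fabp5 stood at 1072 and 856 CPM in basal keratinocytes, and the part of keratinocyte RNA in its fibroblast values was not tested. The other genes lower past 2-fold, named after their values were seen, were Dhrs9 (25.4 and 7.75 CPM) and Rarres1 (15.6 and 1.71 CPM). In basal keratinocytes 35 list genes reached 10 CPM, with 5 higher and 3 lower, beside 5.33% and 11% of all genes, and with 8 higher and 1 lower under median ratio scaling. Those at 50 CPM or more were the corepressor gene Nrip1, at 167 and 418 CPM (1.32, 1.24 to 1.40), and Rai14, at 90.0 and 41.2 CPM (-1.13, -1.34 to -0.92). The rest, named after their values were seen, were Crabp2, Lrat, Akr1b8 and Rarres2 among the higher and Ces1d and Rdh12 among the lower. Lrat, whose product esterifies retinol for storage, was 6.69 and 34.1 CPM, and Crabp2, which carries retinoic acid to its receptors, 6.47 and 23.5 CPM.

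The RXR genes and Rara differed little in fibroblasts, apart from Rxrg. Rxra was 37.9 CPM in Ctrl and 40.3 CPM in AD, and Rxrb 18.1 and 17.8 CPM, with intervals of the log2 fold that included 0 (-0.01 to 0.18 and -0.17 to 0.11). Rara was 45.6 and 39.7 CPM (-0.20, -0.29 to -0.11). Rxrg was rare, with 94 UMIs in Ctrl and 2 in AD fibroblasts (interval of the log2 fold, -8.06 to -3.11). In basal keratinocytes Rxra was 67.0 and 43.9 CPM (-0.61, -0.82 to -0.40) and Rxrb 25.1 and 28.8 CPM. The vitamin D receptor gene Vdr was 20.9 and 23.1 CPM in fibroblasts and 197 and 228 CPM in basal keratinocytes. Cyp24a1, the vitamin D-degrading enzyme gene that the receptor is known to induce, had 0 and 3803 UMIs in fibroblasts and 8 and 5198 UMIs in basal keratinocytes.

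Genes of like pattern were ranked by Pearson's r of log2(CPM + 1) over 28 sums of a cell type in a library, among 15461 genes. The sums share libraries and a fibroblast against non-fibroblast contrast, so r is a description. Crabp1 was most like Mfap5 (0.82), Zfp937 (0.76) and Spon2 (0.73), and Cyp26b1 most like Adamts2, Bicc1 and Nbl1 (0.80 to 0.81). Aldh1a1 was most like Gm29101, Htra3 and Ccl11 (0.85 to 0.89), and Aldh1a3 most like Robo1, Gli1 and Fzd1 (0.81 to 0.85). The genes nearest to Rarg were Rgmb, Tcf20 and Rab40c (0.82 to 0.85), and those nearest to Rarb were Slc6a17, Cdk15 and Scrn1 (0.84 to 0.86). For Dhrs3, Rbp4 and Aldh1a2 the 3 nearest genes (Cenpb, Parp12 and Atg4c, Gm2814, Mgat4c and Gpr135, and Cd209e, Siglech and Tnni2) had r of 0.74, 0.66 to 0.69 and 0.78 to 0.80.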

How the data were processed

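The authors deposited raw UMI counts per gene and cell barcode for each library, made with Cell Ranger (version 3.1.0 in the submitters' processing notes, which also name Seurat 5.0) on mm10. Libraries were not corrected for free RNA here, and the 35 shared barcodes were kept. Kept cells had 200 to 6000 genes and at most 10% mitochondrial UMIs, as in the study's methods. Each cell took the type whose markers scored highest (score at least 0.1, lead at least 0.05); 723 Ctrl and 459 AD gated cells lay within 0.05 of that lead. Fibroblast subsets were gated likewise with a lead of 0.03. Clusters came from scanpy 1.11.5 (2000 variable genes without the 9 genes, 30 components, 20 neighbours, Leiden resolution 1). UMIs were summed per class and library. CPM of 3′ UMIs needs no length correction. Intervals were exact: Poisson for CPM, Clopper-Pearson for shares, conditional binomial for ratios. They and the limit of 3 counts for a count of 0 cover counting error only. Thinned shares used 1000 UMIs per cell in 1 seeded draw and left out 368 Ctrl and 499 AD cells (119 and 189 fibroblasts). Counts past a fold of 2 used genes at 10 CPM or more in either library and a pseudocount of 1 CPM. Types needed 30 cells in each library to be compared. The gene identifiers of the count tables matched GENCODE M21 for 32475 of 33904. The 9 genes, the marker lists and the list of other retinoid genes were chosen with earlier results of these data known. Named from the list were genes at 50 CPM or more with a 2-fold difference, Rara and the RXR genes, and for each of the 9 genes the 3 of most similar pattern. Ratio code was tested on simulated data. With 1 library per group no test was run. Alternatives were another cell filter, gate, clustering, scaling and pseudocount.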

Additional observations from a re-analysis of the deposited data

Results flagged for a closer look

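Cyp26b1 went in opposite directions in fibroblast subsets of the same libraries, and the difference between subsets was not tested because each group has 1 library. The log2 fold (AD relative to Ctrl) was 3.13 in the dermal sheath gate, on 640 Ctrl and 38 AD cells that mostly belonged to different clusters, and -2.07 in the HI-AP subset, which became -0.17 without cluster 0. Ungated cells, which no comparison of cell types or subsets used although some belong to the clusters compared, held Cyp26b1 at 71.3 CPM in the Ctrl and 608 CPM in the AD library, a log2 fold of 3.09. Aldh1a1 in the same cells was 7.01 and 27.7 CPM, a log2 fold of 1.98. Ungated AD cells had 1602 UMIs of Cyp26b1. AD cells of fibroblast cluster 9 had 4523 over all 710 cells and 3397 over the 422 gated as fibroblasts. The part of that cluster's cells outside the fibroblast gate in the fold of ungated cells was not tested.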

How the results depend on the processing

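The cause of a change with a setting was not tested unless named. With all deposited barcodes the fibroblast log2 folds were -1.63 for Crabp1, 0.71 for Cyp26b1, -1.71 for Aldh1a3 and -0.46 for Rarg. With the mean of each cell's CPM they were -2.54 for Crabp1, -0.073 for Cyp26b1, 0.97 for Aldh1a1 and -1.34 for Aldh1a3, and the ratio of Crabp1 in lymphatic endothelial cells (0.76) and of Rarg in melanocytes (-0.61) changed sign. Cyp26b1 was 0.56 with median ratio scaling and 0.49 without the highest doublet scores. Without cluster 11 (setting added after seeing the data, as were the doublet score and cluster 0 settings) Crabp1 was -0.62, Aldh1a1 0.77 and Aldh1a3 -1.26. With sub-clusters in place of the gate Cyp26b1 was -2.55 in the HI-AP and 1.15 in the peri-follicular subset, and without cluster 0 it was -0.17 in the HI-AP subset. Leaving out the 50 top genes from the scaling and the stricter cell filter moved none of the 37 and 62 ratios beyond their interval. The stricter gate and clusters in place of the gate moved 2 and 5 of 37 values, and 35 of 37 kept their sign under each. All deposited barcodes moved 7 of 37 (35 kept their sign). The mean of each cell's CPM moved 10 and reversed 2 of 37 (30 kept their sign), and sub-clusters moved 11 of 19 (17 kept their sign). All 18 fibroblast shares of cells with a UMI were lower after thinning. Other retinoid genes lower past 2-fold in fibroblasts numbered 10 with no filter on low values. In basal keratinocytes 8 were higher with median ratio scaling, and 1, 7 and 1 were lower with a pseudocount of 10 CPM, no filter and median ratio scaling. Leaving out called doublets was not run, because Scrublet called 395 Ctrl and 0 AD cells. No paired analysis was possible because each group has 1 library. The 1 library per group limits every difference, and low counts limit Aldh1a2, Rarb and the small cell types.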

Other observations

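In AD fibroblasts Crabp1 and Aldh1a3 were seen together in 3 of 5190 cells, 0.191 times the product of both shares, and in Ctrl in 225 of 6138 cells, 1.53 times the product. After thinning they were seen together in 0 AD cells, against 0.855 by the product, and in 33 Ctrl cells, 2.50 times the product. Cells with both Aldh1a1 and Aldh1a3 numbered 624 in Ctrl and 242 in AD, 1.60 and 1.32 times the product. Joint detection of Aldh1a3 and Rarb was 2.51 times the product in Ctrl (114 cells) and 1.75 times in AD (30 cells), and after thinning it came to 0 cells in Ctrl and 1 in AD, too few to read. For Aldh1a1 and Aldh1a3 the thinned values were 1.42 and 1.23 times the product, on 22 and 12 cells. The melanocyte cluster 25 (73 Ctrl and 127 AD cells, led by Dct, Pmel and Tyrp1) had 68.9 and 25.3 CPM of Rarb, a log2 fold of -1.44 (-2.44 to -0.55), and 15.9 and 58.5 CPM of Rarg, a log2 fold of 1.88 (0.87 to 2.98). In the 75 Ctrl and 87 AD gated melanocytes the log2 fold of Rarg was 1.01 (-0.26 to 2.23) and that of Rarb -0.72 (-1.76 to 0.20), both with intervals that include 0. The AD cells of cluster 25 had 20 UMIs of Aldh1a1, where gated AD melanocytes had 0, so the cluster also held other cells.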
